A study of Sus scrofa with 11 samples.

Results

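Aminoacyl-tRNA synthetases are the enzymes that join each amino acid to its transfer RNA, and so supply the charged tRNAs that the ribosome reads. Each amino acid has its own synthetase. When an amino acid runs short, uncharged tRNA activates the kinase GCN2, and the transcription factor ATF4 then raises a programme of genes that in many cell types includes cytosolic synthetases. The 10 synthetases considered here were DARS, EPRS, GARS, IARS, KARS, NARS, RARS, SARS, TARS and WARS, and members were all probe sets whose platform annotation gave 1 of these symbols alone. That rule found 16 probe sets for 8 genes, out of 10069 probe sets for 6765 genes with a single symbol. IARS and TARS had no probe set under the rule and were dropped. DARS was already known from the study's own calls on these pigs to be higher on the low protein diet, and the question was whether the other synthetases shared that difference.

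The samples were *M. semimembranosus*, a muscle of the ham, from 11 purebred Duroc gilts (young female pigs). From about 10 weeks of age 6 gilts ate a high protein (HP) diet with 217 g/kg crude protein and 13.0 g/kg total lysine, and 5 ate a low protein (LP) diet with 128 g/kg and 7 g/kg, both for 63 days at the same digestible energy (14 MJ/kg). The diets differed in their ratio of wheat to soyabean meal, and in both of them synthetic amino acids held threonine, tryptophan and the sulphur amino acids in proportion to lysine. Each pig had its own Affymetrix Porcine Genome array, and its values are expression levels on the log2 scale as the authors deposited them, 1 for each probe set (a group of short probes meant for 1 transcript). The gilts were blocked on initial weight before they were assigned to a diet. Which pig belonged to which weight block, pen or slaughter date is unknown here, so none of these could be modelled. Effects of pen or slaughter date cannot be told apart from diet. Levels of different probe sets are not compared with each other, because probes differ in brightness.

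Some facts of the arrays bear on all the results. All 8 measured skeletal muscle fibre genes lay above the highest of the 23 negative control probe sets on every array. Their brightest probe sets ran below 0 in LP minus HP, between -0.25 and -0.20 on the log2 scale, and none passed the test. Markers of adipocytes (4 genes), endothelium (5), fibroblasts (4), macrophages (4) and red blood cells (2) gave no calls by the brightest probe set of each gene. Of the 4 adipocyte genes 3 lay above 0 and 1 below. The largest adipocyte difference was that of LEP, the leptin gene (0.74 ± 0.34 (SE), exact permutation p = 0.0887). On dimmer probe sets, as for DARS, there were 2 calls, both higher in LP. They were LEP, the adipocyte hormone leptin, on a probe set above the negative controls on 9 of 11 arrays (3.64 ± 1.34 (SE), exact permutation p = 0.00866), and TEK, an endothelial receptor, on one above them on 3 of 11 (0.76 ± 0.30 (SE), exact permutation p = 0.0303). Of 4 lymphocyte markers CD79B was called lower, but it lay below the negative controls on all arrays. The mean level over each marker list overlapped between the diets. It spanned 8.34 to 9.28 in HP and 8.45 to 9.48 in LP for adipocytes, and 6.48 to 7.92 in HP and 6.59 to 7.51 in LP for macrophages. The study measured a higher fat content in the LP muscle of these pigs, so the lack of calls does not show an equal tissue make-up. The part of these cells in the synthetase levels was not tested. In whole muscle, fewer cells of a type and less RNA per cell cannot be told apart. The mean of the hybridisation spike-ins, foreign transcripts added before hybridisation, was 0.26 lower on the LP arrays (two-sided exact permutation p = 0.186). Actin, read at the 3′ end relative to the 5′ end as a measure of RNA integrity, was 0.43 lower in LP (two-sided exact permutation p = 0.123).

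DARS, the aspartyl-tRNA synthetase, was higher in LP muscle on 1 of its 2 probe sets. On Ssc.22328.3.S1_at the 5 LP pigs read 8.59, 8.30, 8.49, 8.42 and 8.49 on the log2 scale. The 6 HP pigs ran from 7.66 through a median of 7.95 to 8.29. Every LP value thus lay above every HP value, although the nearest HP and LP pigs were separated by only 0.0084. Such a full separation with LP on top was found for 0.25% of all 23999 probe sets tested. The difference was 0.47 (standard error 0.13, 95% interval 0.19 to 0.76) or 1.39-fold (limma p = 0.00402, exact permutation p = 0.00433). Adjusted over all probe sets by Benjamini-Hochberg, the limma p was 0.792, and no probe set on the array passed that adjustment (smallest 0.644). The study singled out this probe set on the same pigs, so its difference is not independent evidence.

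The second DARS probe set, Ssc.22328.2.S1_at, was the brighter one and did not pass. Its LP values were 11.35, 11.31, 11.02, 11.39 and 11.51, against 10.83 to 11.42 with a median of 11.22 in HP. The groups overlapped, with 1 LP pig above the highest HP pig. The difference was 0.14 ± 0.14 (SE, exact permutation p = 0.294), with a 95% interval from -0.18 to 0.46 that ends just below the estimate of the dimmer probe set. The gap between the changes of the 2 DARS probe sets, taken within each array, was 0.33 and did not pass a test of its own (exact permutation p = 0.123). With diet means removed, the 2 DARS probe sets did not move together across the 11 arrays (Pearson r = -0.00077, permutation p = 0.998, Spearman rho = 0.0091, permutation p = 0.990, r = -0.13 without the 2 arrays farthest from the median). Averaged into 1 value per array, they gave a difference of 0.31 ± 0.11 (SE), which passed the threshold used below.

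**Figure D1:**
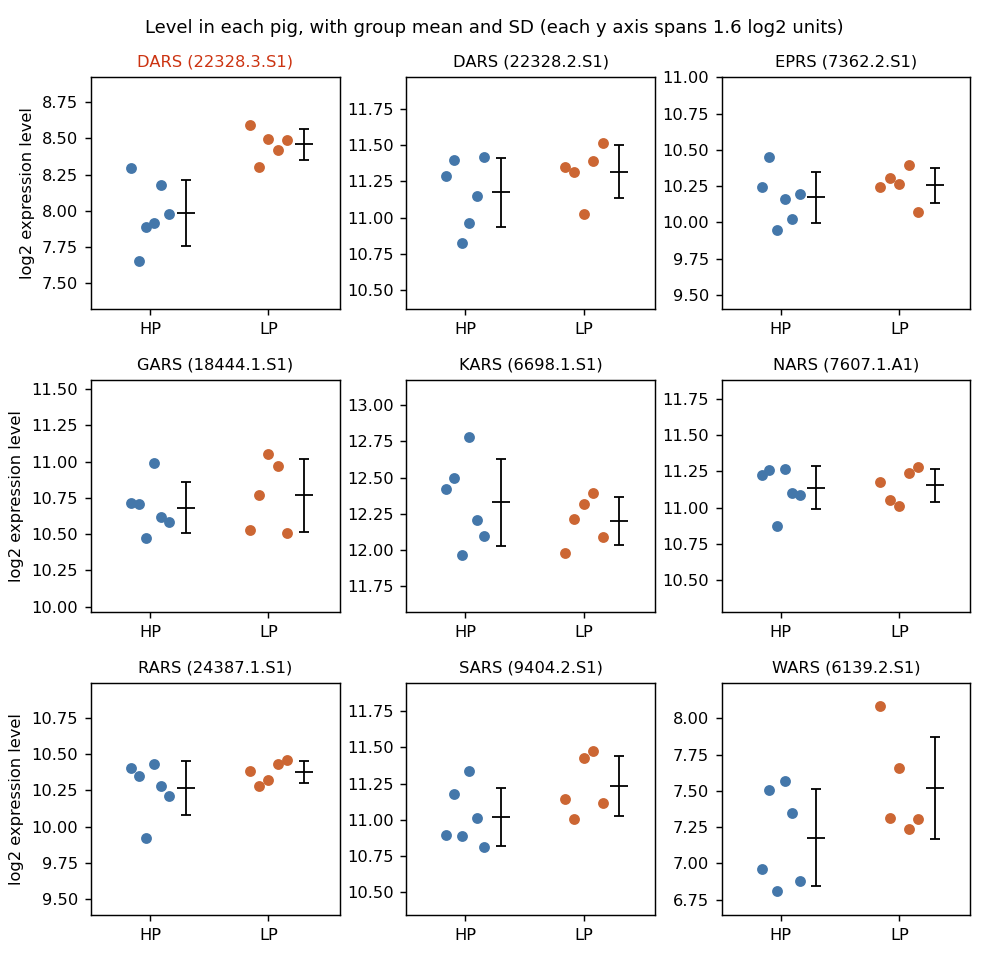
Log2 expression level of the DARS probe set past the threshold (red title) and of the brightest probe set of each of the 8 synthetases, in 6 HP pigs (blue) and 5 LP pigs (orange), in order of replicate number, with the mean and SD of each diet beside the points. Only in the first panel do all LP pigs lie above all HP pigs. In the other 8 panels the groups overlap.

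Over the whole family, 1 of 16 probe sets was called higher in LP at a limma p of 0.05 or less without adjustment, and 0 were called lower. One in 16 is 6.25%, where 2.15% of all probe sets tested were called higher, 2.97% lower and 5.11% in either direction. The 1 call was the DARS probe set that prompted the question, so this share is not evidence about the family. Of the other 15 probe sets 0 were called. By the brightest probe set of each gene, 0 of 8 synthetases passed. The exact permutation test also called only the DARS probe set. The other 15 probe sets differed by -0.13 to 0.34, or 0.914-fold to 1.27-fold, and their smallest limma p was 0.127. All 15 of their 95% intervals included 0. In 7 of the 15 the interval ended below the DARS estimate of 0.47, and in the other 8 it reached that value, so a change as large as that of DARS could not be told from none at this number of arrays. Although single calls were few, the estimates leaned one way. In 14 of 16 probe sets, and by 7 of 8 brightest probe sets, LP lay above HP, with a median difference of 0.14 over the 16 beside -0.016 over all probe sets tested, of which 47.4% lay above 0. Both DARS probe sets are among the 14, and the brighter one is among the 7. Probe sets of 1 gene and arrays of 1 experiment share their noise, so the 14 are not 14 separate observations.

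**Figure D2:**
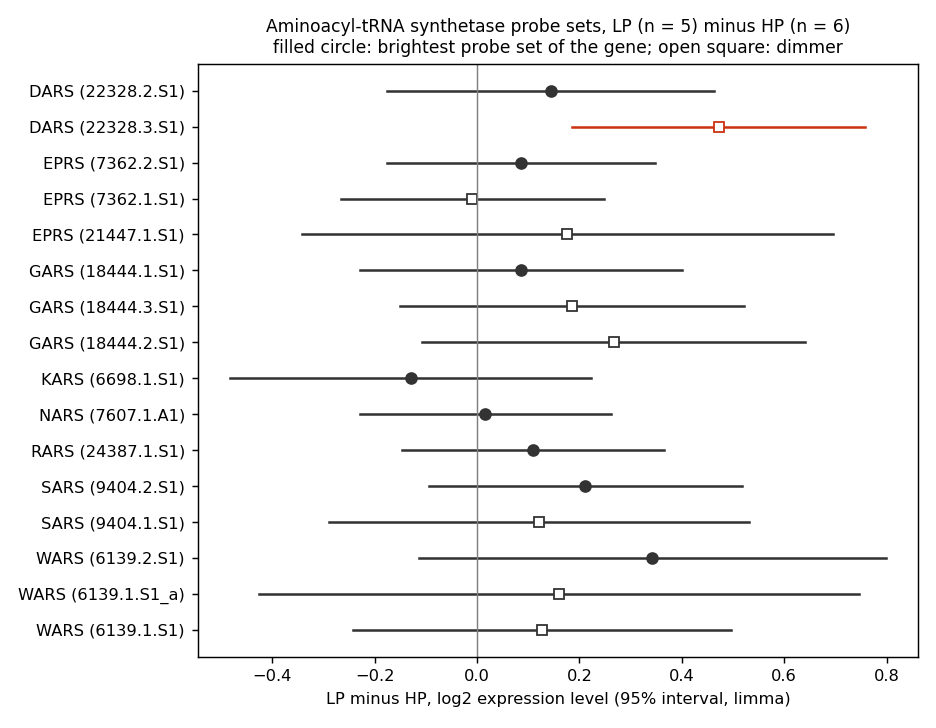
LP minus HP difference in log2 expression level for each of the 16 synthetase probe sets, with its 95% interval from limma. Filled circles mark the brightest probe set of a gene, open squares the dimmer ones, and red the DARS probe set past the threshold. That interval (0.19 to 0.76) is the only one that excludes 0, and 14 of 16 estimates lie to the right of 0.

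WARS, the tryptophanyl-tRNA synthetase, which interferon gamma is known to induce, had the next largest estimate. Its brightest probe set, Ssc.6139.2.S1_at, read 8.08, 7.31, 7.66, 7.24 and 7.31 in LP and 6.81 to 7.57 with a median of 7.16 in HP. All 5 LP pigs lay above the HP mean, but only 2 lay above the highest HP pig, and 1 LP pig stood well over the rest. The difference was 0.34 ± 0.21 (SE, exact permutation p = 0.128). The other 2 WARS probe sets differed by 0.16 ± 0.27 and 0.13 ± 0.17 (SE). None of 6 measured interferon gamma targets was called in either direction. The 2 with the smallest p were GBP1, an interferon-induced GTPase, at -0.33 ± 0.21 (SE), and TAP1, a peptide transporter of antigen presentation, at 0.18 ± 0.18 (SE).

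For SARS, the seryl-tRNA synthetase, the brightest probe set read 11.14, 11.01, 11.43, 11.47 and 11.12 in LP, against 10.82 to 11.34 with a median of 10.95 in HP. The diets overlapped over most of their range, and 2 LP pigs exceeded the highest HP pig. The difference was 0.21 ± 0.14 (SE, exact permutation p = 0.119), and a dimmer SARS probe set differed by 0.12 ± 0.19 (SE). GARS, the glycyl-tRNA synthetase, is the product of a gene that serves both cytosol and mitochondria. Its 3 probe sets gave 0.09, 0.19 and 0.27 from the brightest to the dimmest, with standard errors of 0.14 to 0.17. On the dimmest the LP pigs read 7.81, 7.76, 8.14, 8.17 and 7.97, and the HP pigs 7.25 to 8.19 with a median of 7.73. All 5 LP pigs lay above the HP mean but none above the highest HP pig (exact permutation p = 0.134). When single arrays were left out, that difference ran from 0.18 without HP replicate 2 to 0.36 without HP replicate 4. It passed only without HP replicate 4.

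KARS, the lysyl-tRNA synthetase, handles the amino acid whose content in the feed the study set at 13.0 and 7 g/kg. It was the one gene whose brightest probe set lay below 0. The LP pigs read 11.98, 12.21, 12.32, 12.39 and 12.09, and the HP pigs 11.96 to 12.78 with a median of 12.32. Only 1 LP pig lay above the HP mean. The difference was -0.13 ± 0.16 (SE, exact permutation p = 0.416), with a 95% interval from -0.48 to 0.22, so a difference of 0.47 lay outside it. After quantile normalization, which gives all arrays the same distribution, the KARS difference was -0.016 ± 0.093 (SE). The sign turned to 0.058 with the spike-in mean and to 0.080 with the actin signal as a covariate.

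NARS, RARS and EPRS were not called on any of their probe sets. NARS, the asparaginyl-tRNA synthetase, averaged 11.15 ± 0.12 in the 5 LP pigs and 11.14 ± 0.15 in the 6 HP pigs (mean ± SD). The LP pigs read 11.18, 11.05, 11.01, 11.24 and 11.28 and the HP pigs 10.88 to 11.26, so the groups covered nearly the same range. The 95% interval for NARS, -0.23 to 0.26, corresponds to 0.854-fold to 1.20-fold. RARS, the arginyl-tRNA synthetase, averaged 10.38 ± 0.076 in LP pigs against 10.27 ± 0.19 in HP pigs (SD), a difference of 0.11 ± 0.12 (SE). For RARS the LP pigs read 10.38, 10.28, 10.32, 10.43 and 10.46, and the HP pigs 9.92 to 10.43 with a median of 10.32. All 5 LP pigs lay above the HP mean, and 2 lay above the highest HP pig. EPRS carries the glutamyl and the prolyl synthetase on a single chain. The brightest EPRS probe set read 10.25, 10.31, 10.27, 10.40 and 10.07 in LP and 9.95 to 10.45 with a median of 10.18 in HP, with no LP pig above the highest HP pig. From the brightest to the dimmest, the 3 probe sets differed by 0.09 ± 0.12, -0.0091 ± 0.12 and 0.18 ± 0.24 (SE), the last on its dimmest probe set, where the HP pigs ran from 6.28 to 7.55.

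Whether the change of DARS differed from that of the other genes was tested on the within-array difference between its brighter probe set and the brightest probe set of each other gene, so that all genes were represented by the same choice. None of 7 differences between changes passed an exact permutation test at 0.05 before adjustment. They ran from -0.20 against WARS (exact permutation p = 0.444) to 0.27 against KARS (exact permutation p = 0.216). This comparison was chosen after the values were seen, and the brighter DARS probe set had itself not passed (0.14 ± 0.14 (SE)). It therefore cannot decide whether the rise on the dimmer DARS probe set was shared. The dimmer DARS probe set was picked because it had passed, while the others were picked by brightness, so its gaps to the other genes are given as a description. Its change was larger than theirs by 0.60 for KARS, 0.46 for NARS, 0.39 for EPRS and GARS, 0.36 for RARS, 0.26 for SARS and 0.13 for WARS. Of these 7 gaps 4 had an exact permutation p of 0.05 or less. Because of how the dimmer probe set was picked, that count is not independent evidence.

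DARS, EPRS, KARS and RARS sit in the multi-synthetase complex, in which several synthetases are bound to scaffold proteins. The 7 probe sets of these 4 genes had a median difference of 0.11, with 5 above 0. The 9 probe sets of GARS, NARS, SARS and WARS, which lie outside the complex, had a median of 0.16, with all 9 above 0. By the brightest probe set of each gene the medians were 0.098 inside the complex and 0.15 outside it. The 2 structural classes of synthetase had the same median of 0.14 over all their probe sets. These were 9 class II probe sets (DARS, GARS, KARS, NARS and SARS) and 4 class I probe sets (RARS and WARS). By the brightest probe set of each gene the class medians differed, at 0.086 for class II and 0.23 for class I. Synthetases for lysine, tryptophan and arginine gave a median of 0.13 over 5 probe sets. Those for aspartate, glutamate and proline, glycine, asparagine and serine gave 0.14 over 11. By the brightest probe set of each gene that order turned, to 0.11 against 0.086. These are descriptions, and the differences between groupings were not tested.

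Most pairs of probe sets of 1 gene moved together from pig to pig in GARS, SARS and WARS. The DARS pair did not, nor did the brightest EPRS probe set with the other EPRS probe sets. With diet means removed, 11 pairs of probe sets within 5 genes were correlated over the 11 arrays, and 9 of the 11 correlations were above 0, with a median r of 0.61. For GARS the brightest and the middle probe set gave r = 0.90 (permutation p = 0.00188, Benjamini-Hochberg adjusted over 11 relations 0.0187, Spearman rho = 0.83, permutation p = 0.00619, r = 0.78 without the 2 farthest arrays). For SARS the pair gave r = 0.71 (permutation p = 0.0150, adjusted 0.0329, rho = 0.85, permutation p = 0.00298, r = 0.51 without the 2 farthest arrays). Among 3 pairs of EPRS probe sets r ran down to -0.43 (permutation p = 0.292, rho = -0.39, permutation p = 0.296, r = -0.54 without the 2 farthest arrays), for the brightest and the dimmest. The brightest and the middle EPRS probe set gave r = 0.052 (permutation p = 0.885, rho = -0.39, permutation p = 0.255). The middle and the dimmest gave r = 0.55 (permutation p = 0.0689, adjusted 0.0947, rho = 0.81, permutation p = 0.00296). For WARS the brightest and the middle probe set gave r = 0.76 (permutation p = 0.0113, adjusted 0.0312). In all, 5 of 11 relations had an adjusted p under 0.05, and all 5 belonged to GARS, SARS and WARS. In GARS and WARS the brightest with the dimmest probe set did not pass after adjustment. These pairs gave r = 0.61 for GARS (permutation p = 0.0393, adjusted 0.0720, r = 0.27 without the 2 farthest arrays) and r = 0.61 for WARS (permutation p = 0.0678, adjusted 0.0947).

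Levels of 3 synthetases also followed the spike-ins, although these carry no pig RNA. Across the 11 arrays with diet means removed, r with the spike-in mean was 0.88 for KARS (permutation p = 0.00130, adjusted over 16 relations 0.0105, rho = 0.86, permutation p = 0.00389, r = 0.81 without the 2 arrays farthest from the median). It was 0.86 for RARS (permutation p = 0.00157, adjusted 0.0105, rho = 0.88, permutation p = 0.00153, r = 0.80 without those arrays) and 0.81 for NARS (permutation p = 0.00197, adjusted 0.0105, rho = 0.80, permutation p = 0.00404, r = 0.70 without those arrays). For the DARS probe set past the threshold r was -0.064 (permutation p = 0.880, rho = -0.036, permutation p = 0.933, r = -0.35 without those arrays). Only KARS, RARS and NARS passed after adjustment over the 16 probe sets, and 15 of 16 correlations were above 0.

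**Figure D3:**
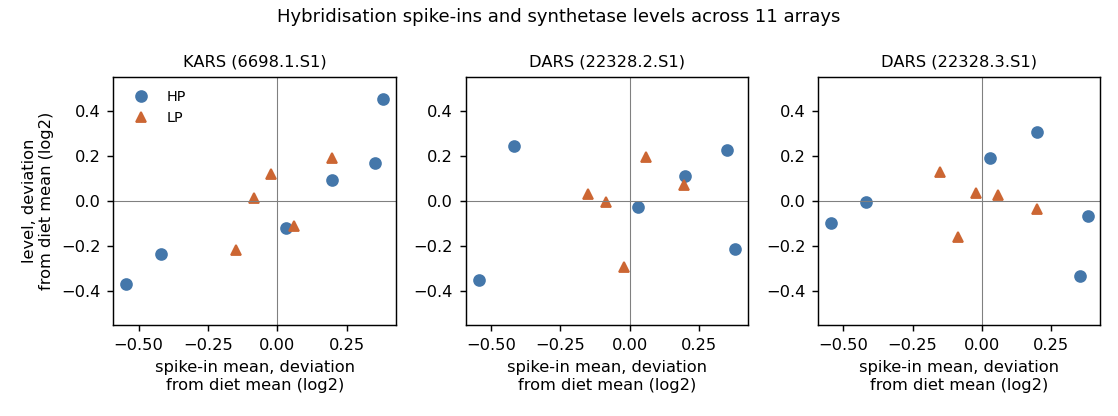
Deviation of the log2 level from its diet mean (y) against the deviation of the spike-in mean from its diet mean (x) on 6 HP (circles) and 5 LP (triangles) arrays, for KARS and both DARS probe sets. KARS climbs with the spike-ins (r = 0.88), while the DARS probe set past the threshold, in the right panel, shows no such slope (r = -0.064).

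With the spike-in mean of each array added to the fit, 3 of 16 probe sets were called higher in LP, where 3.77% of all probe sets were called higher in that fit. The DARS probe set stood at 0.46, and SARS at 0.33 and RARS at 0.22 on their brightest probe sets, all past the threshold. KARS was then 0.058, and none of the 16 estimates lay below 0 (median 0.19, against 0.035 over all probe sets). With the actin 3′ minus 5′ signal in its place, the DARS probe set (0.40) and SARS (0.35) passed, 2 of 16, where 3.75% of all probe sets were called higher. After quantile normalization, which gives all arrays the same distribution, the same 2 probe sets passed, at 0.47 for DARS and 0.26 for SARS. In that fit 2.71% of all probe sets were called higher. The SARS call was therefore absent from the values as deposited and present under these 3 settings, and the DARS call held under each. The estimates of all probe sets also rose with the spike-in term, and the share of them below 0 went from 52.6% as deposited to 44.4%. As deposited, the median difference was 0.14 over the 16 probe sets and -0.016 over all probe sets tested.

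**Figure D4:**
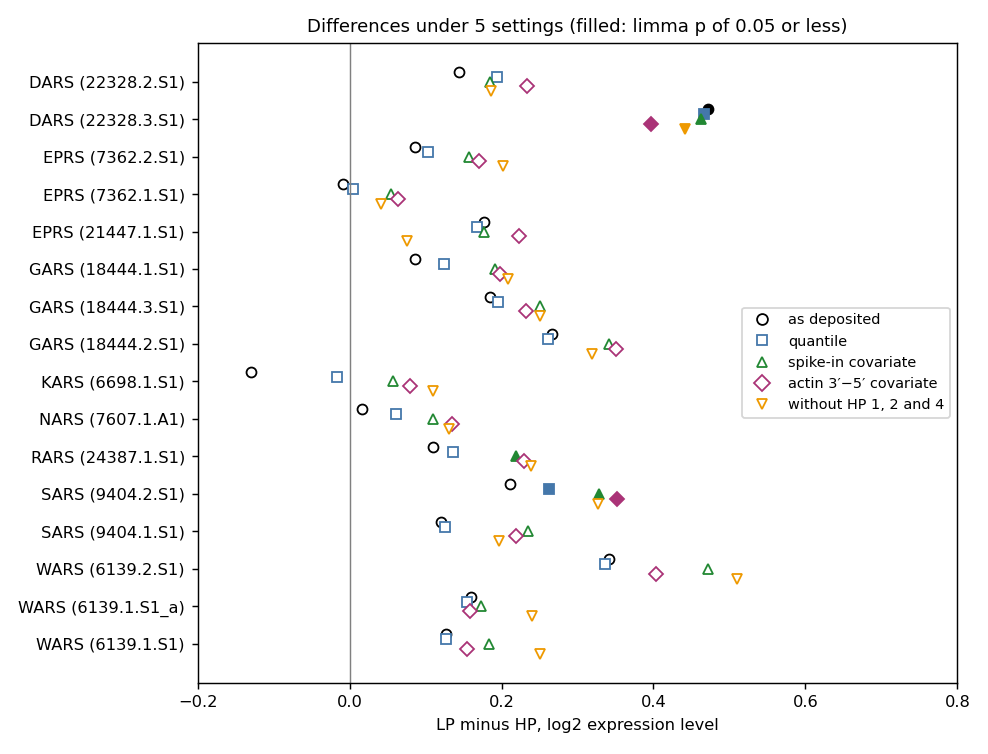
LP minus HP difference in log2 level for the 16 probe sets, in values as deposited (circles), after quantile normalization (squares), with the spike-in mean (triangles) or the actin 3′ minus 5′ signal (diamonds) as a covariate, and without HP replicates 1, 2 and 4 (inverted triangles). Filled symbols passed a limma p of 0.05 or less. The DARS probe set Ssc.22328.3.S1_at is filled in all 5 settings, SARS Ssc.9404.2.S1_at in 3 of them and RARS in 1.

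Among synthetases outside the rule, estimates were also small. Of 7 other cytosolic synthetases with a probe set, 0 were called by their brightest probe set, 6 lay above 0, and the median difference was 0.10. The smallest p belonged to HARS, the histidyl-tRNA synthetase (0.18 ± 0.11 (SE), exact permutation p = 0.0584), and VARS, the valyl-tRNA synthetase (0.26 ± 0.19 (SE), exact permutation p = 0.201). Of 9 genes that help supply charged mitochondrial tRNAs, 0 were called, 8 lay above 0, and the median was 0.08. Among them GATB, GATC and QRSL1 are not synthetases but subunits of the enzyme that amidates glutamate already on its tRNA. NARS2, the mitochondrial asparaginyl enzyme, differed by 0.27 ± 0.17 (SE), and EARS2, the mitochondrial glutamyl enzyme, by 0.11 ± 0.13 (SE). Among the 3 scaffold proteins of the complex, AIMP2 differed by 0.26 ± 0.16 (SE) and AIMP1 by -0.15 ± 0.16 (SE), with 0 calls. Of the elongation factors that carry charged tRNA to the ribosome and renew that carrier, 3 of 4 lay below 0. Their median was -0.11, with 0 calls. The 3 were EEF1B2, EEF1G and EEF1D, bright probe sets with mean levels of 12.2 to 13.4. EEF1A1, at a mean level of 10.3, lay above 0. The bright end of the arrays was itself lower in LP. Its part in these differences, and in that of AIMP1 (mean level 12.8), was not tested. EEF1B2 differed by -0.22 ± 0.19 (SE) and EEF1G by -0.16 ± 0.17 (SE).

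The amino acid response genes, with which cytosolic synthetases are known to be induced, included 4 called genes. Of 17 measured genes 4 (23.5%, beside 2.15% of all probe sets tested) were called higher and 0 lower, with a median difference of 0.28, or 0.18 over the 15 that lay above the negative controls on all arrays. ASNS, the asparagine synthetase, rose by 0.64 ± 0.22 (SE, 1.56-fold, exact permutation p = 0.0260). DDIT3, a stress transcription factor, rose with nearly separate groups, its highest HP pig at 9.26 and its lowest LP pig at 9.25 (0.67 ± 0.15 (SE), exact permutation p = 0.00649). ATF3, a further stress transcription factor, rose by 0.95 ± 0.34 (SE, exact permutation p = 0.0303). The ATF5 probe set, also called, lay above the negative controls on no array, and its size is left out for that reason. ASNS and DDIT3 were already among the study's own calls on these pigs, so the count of this list is not independent evidence. ATF4 itself, which is controlled largely at translation, differed by -0.18 ± 0.15 (SE, exact permutation p = 0.219). Among the same pigs with diet means removed, the correlation of the DARS probe set with ASNS did not pass (r = 0.63, permutation p = 0.0650, adjusted over 3 relations 0.195, rho = 0.48, permutation p = 0.163). That correlation rested on the 2 farthest arrays (r = 0.047 without them). Nor did the correlation of the DARS probe set with DDIT3 (r = 0.11, permutation p = 0.790, rho = 0.19, permutation p = 0.604, r = 0.41 without the 2 farthest arrays) or ATF3 (r = -0.30, permutation p = 0.472, rho = -0.19, permutation p = 0.619, r = 0.057 without them). At this number of arrays, that does not show that a relation was absent.

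In 5965 candidate probe sets, the pig-to-pig pattern with diet means removed was compared with that of the DARS probe set. Over the 11 arrays, the genes with the highest Pearson correlations were C12H17orf75 (r = 0.85) and INSIG2, an inhibitor of sterol-regulated transcription (r = 0.82). Next came CPEB2, which binds the cytoplasmic polyadenylation element, PICALM, a clathrin assembly protein, and XPO1, the main nuclear export receptor (r = 0.81 each). They were chosen as the highest of many, so these r values are a description. None of the 5 was called between the diets, with differences of -0.35 to 0.18.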

How the data were processed

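Muscle RNA of each pig was hybridised to its own Affymetrix Porcine Genome array. The authors deposited log2 expression levels, and their methods name R, Bioconductor and puma without saying how background and normalisation were handled. The table holds 24123 probe sets. After removal of 124 controls, 23999 were tested. Platform annotation gives 1 symbol for 10069 of these, several for 198 and none for 13732.

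LP minus HP was fitted over all probe sets with limma 3.58.1 in R 4.3.3 (constant prior, no block, two-sided). A call is a limma p of 0.05 or less before adjustment. The study called at 0.05 on another statistic, P-like values that puma derives from probe-level uncertainty, which the deposited levels do not carry. Member probe sets were also tested by two-sided exact permutation of the diets (462 possible divisions, smallest p 0.00216). Correlations used 100000 permutations within diets. Above background means brighter than every negative control on that array. In gene lists the probe set with the highest mean stands for its gene. The fit was tested on simulated data. Precision is limited by the number of arrays, and p-values measure the spread between these pigs.

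Members, gene lists and tests were chosen with earlier results of these data known. Named genes are all members, the called genes of each list or otherwise the 2 with the smallest p, and the 5 most like DARS. Sequences, promoter motifs and chromosome positions were not analysed here.

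Alternatives were quantile normalization, centring on the array median, removal of dim probe sets, a floor at percentile 20, a trended robust prior, weights for arrays, a block for the replicate number, the spike-in mean or actin signal as a covariate, removal of each array, the exact test, and averaging a gene's probe sets. Removal of HP replicates 1, 2 and 4 at once, whose bright probe sets were the brightest, was added with the data known, as was the comparison of the brighter DARS probe set with the other genes.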

Additional observations from a re-analysis of the deposited data

Results flagged for a closer look

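Each of the 16 probe sets was searched in each diet, 32 groups in all, for an array far from the others by Dixon's gap-to-range ratio, with limits of 0.71 for 5 arrays and 0.625 for 6. There were 3 such arrays, where chance gives about 1 in 20 groups. HP replicate 3 was low on the EPRS probe set Ssc.7362.1.S1_at, at 8.87, with the next HP pig at 9.14. On the dimmest EPRS probe set, Ssc.21447.1.S1_at, LP replicate 5 was high at 7.53, with the next LP pig at 7.16. On the dimmer SARS probe set, Ssc.9404.1.S1_at, LP replicate 2 was low at 8.23, with the next LP pig at 8.87. None of the 3 probe sets passed the test in any refit, with those arrays or without them.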

How the results depend on the processing

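The DARS probe set Ssc.22328.3.S1_at kept its direction and its call in all 21 refits (0.40 to 0.53, limma p from 0.00188 to 0.0217), with 0.41 to 0.53 when single arrays were left out. Member probe sets called higher numbered 2 after quantile normalization, 3 with the spike-in term, 2 with the actin term, and 1 to 2 when single arrays were left out (2 without HP replicate 4). By the brightest probe set of each gene the count was 1 after quantile normalization, 2 with the spike-in term, 1 with the actin term, 1 with the probe sets of a gene averaged, and 0 without any single array. Differences near 0 changed sign. EPRS Ssc.7362.1.S1_at was 0.0041 after quantile normalization, 0.054 with the spike-in term, 0.063 with the actin term and 0.041 without HP replicates 1, 2 and 4, and ran from -0.065 to 0.059 when single arrays were left out. KARS was 0.058 with the spike-in term, 0.080 with the actin term and 0.11 without those 3 HP arrays. NARS was -0.0050 with array weights and ran from -0.036 to 0.051 when single arrays were left out. The cause was not tested.

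With the replicate block, the DARS difference was 0.47 and no call among the members changed. The numbers were not taken as pairs, since same-numbered arrays correlated between -0.15 and 0.094. Over all probe sets 1227 were called, 58.0% of them lower, against 710 with dim probe sets left out, and 1884 without the 3 HP arrays. Calls were lower for 44.9% with the spike-in term, 43.1% with the actin term, 40.1% without the 3 HP arrays, and 48.6% without HP replicate 4.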
